A study of Mus musculus with 3 samples.

Results

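The genes of glucose breakdown were described in 1 population sorted from mouse bone marrow: 36 genes of glycolysis, the pentose phosphate pathway and glycogen metabolism, among 11419 genes listed in the deposited data. They were chosen by name as enzymes, transporters and controlling enzymes of these pathways, not by their values. All 36 were listed in every library. The cells were taken from hind limb marrow of C57BL/6 mice and sorted for surface CD11b, CD169 and F4/80 without CX3CR1, and their messenger RNA was sequenced. There were 3 libraries of this 1 group, with no treatment and no other population, and the labels give neither age nor sex. They state n = 3 for mice but do not tie a library to an animal, so the p-values speak of library-to-library spread that may be technical.

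Glycolysis splits glucose into pyruvate in the cytosol. Hexokinase traps the sugar, phosphofructokinase commits it, and lactate dehydrogenase turns pyruvate into lactate so that the pathway can go on without oxygen. The pentose phosphate pathway leaves glycolysis right after hexokinase. Its oxidative part makes NADPH, which phagocytes use for their oxidase and to keep glutathione reduced, and its non-oxidative part, run by transketolase and transaldolase, exchanges sugars with glycolysis and makes ribose. Granulocytes also store glycogen, which glycogen phosphorylase opens. Several steps have isoenzymes from separate genes that tissues use in different mixtures.

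The libraries had 5150020, 40149274 and 37604930 reads assigned to listed genes in replicates 1, 2 and 3, so a gene at 10 CPM (each library's assigned reads scaled to the same total) had 51.5, 401 and 376 reads. Markers went partly against the name macrophages, which the labels give the cells and the design text sets in quotation marks. All 12 late neutrophil markers were called above 10 CPM and took 18.8% to 22.5% of reads, with Ngp at 55067 ± 4306 CPM and S100a9 at 45313 ± 7554 (SD, n = 3), and all 6 primary granule markers were above (0.654% to 0.846% of reads, led by Mpo and Elane). Of the gate's genes, Itgam (503 ± 55.1 CPM) and Adgre1 (22.2 ± 3.97) were above, and Siglec1 (2.87 ± 2.20) and Cx3cr1 (0.141 ± 0.244) below. Of 12 resident macrophage markers 4 were above and 6 below, with 0.0215% to 0.0246% of reads (highest Vcam1 and Csf1r). The other lists took small shares: monocyte 0.0964% to 0.119% of reads (2 of 8 above, led by Ly6c2 and Treml4, with Vcan at 0 in every library), erythroid 0.0645% to 0.111% (7 of 12, Hbb-bs and Hba-a1), eosinophil 0.0592% to 0.136% (6 of 8, Prg2 and Epx), basophil and mast cell 0.0137% to 0.0978% (3 of 6 listed, Prss34 and Mcpt8), B lymphoid 0.0202% to 0.0250% (1 of 7 listed, Ighm ahead of Cd79b) and T and NK 0.00830% to 0.0114% (1 of 4 listed, Nkg7 ahead of Cd3d). In such bulk samples fewer cells of a type and less RNA per cell cannot be told apart.

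Of the 36 genes, 34 were above 10 CPM and 2, Pfkm and Aldoc, were below (limma on log2(CPM + 1) against 10 CPM, adjusted p under 0.05). Nearest to the tested level among those above was Pygb (log2 0.95, SE 0.18, limma adjusted p = 4.28e-05). Over all 11123 genes tested, 58.8% were above and 28.3% below. The median gene of the pathways was at 178 CPM, and that of all tested genes at 20.95 CPM. Of the 93 listed genes over 1000 CPM, 10 were of these pathways. The share of reads held by the 36 genes was 2.35% in replicate 1, 2.19% in replicate 2 and 2.15% in replicate 3, and the 8 highest of them held 70.1% of that. The plot of levels by library shows how far apart the genes stood and how close the libraries were.

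**Figure D1:**
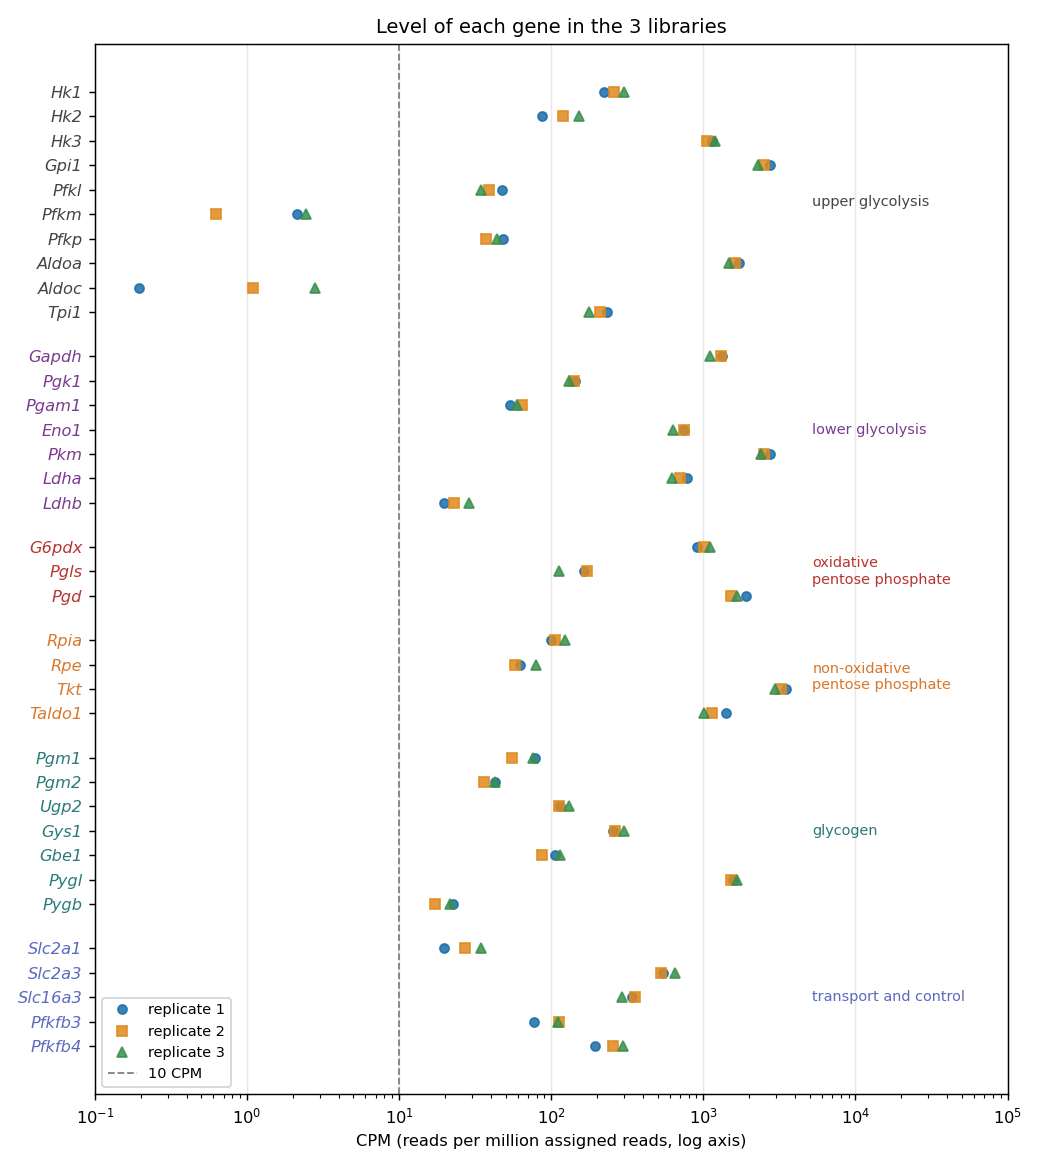
Level of the 36 genes in CPM (log axis), grouped by pathway part, with 1 point per library and the tested level of 10 CPM as a dashed line. Pfkm and Aldoc lie left of the line in all 3 libraries and the other 34 genes lie right of it, from Pygb at 17.2 CPM in replicate 2 up to Tkt at 3497 CPM in replicate 1.

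The hexokinase genes encode 3 isoenzymes of the first step that differed in level, and their start regions are printed here so that the genes can be told apart. Each run covers 250 bases before to 50 bases after a RefSeq transcript start (build GRCm38.p6), 5′ to 3′ on the gene's strand. Capitals mark matches, on either strand, to ACGTG, the core that hypoxia-inducible factors read, or GAGGAAG, a form of the site of PU.1, a myeloid transcription factor.
Hk3, chr13:55021336-55021635, minus strand: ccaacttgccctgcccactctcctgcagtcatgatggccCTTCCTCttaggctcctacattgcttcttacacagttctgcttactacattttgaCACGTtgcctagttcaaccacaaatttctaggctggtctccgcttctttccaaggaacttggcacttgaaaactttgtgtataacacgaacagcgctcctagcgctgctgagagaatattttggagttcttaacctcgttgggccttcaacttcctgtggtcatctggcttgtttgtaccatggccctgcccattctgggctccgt
Hk2, chr6:82774405-82774704, minus strand: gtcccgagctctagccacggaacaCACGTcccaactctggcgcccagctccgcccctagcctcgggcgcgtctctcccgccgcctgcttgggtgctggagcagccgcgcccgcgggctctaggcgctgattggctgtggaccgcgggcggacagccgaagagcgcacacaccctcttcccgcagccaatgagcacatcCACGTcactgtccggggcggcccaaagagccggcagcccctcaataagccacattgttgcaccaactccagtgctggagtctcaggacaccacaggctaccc
Hk1, inner start, chr10:62340372-62340671, minus strand: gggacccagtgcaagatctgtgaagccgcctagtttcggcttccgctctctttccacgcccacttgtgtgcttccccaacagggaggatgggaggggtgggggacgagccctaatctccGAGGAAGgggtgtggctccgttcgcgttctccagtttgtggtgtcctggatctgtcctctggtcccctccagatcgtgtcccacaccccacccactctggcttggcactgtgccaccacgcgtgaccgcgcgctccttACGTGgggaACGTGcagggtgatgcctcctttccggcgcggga
Hk1, outer start, chr10:62379859-62380158, minus strand: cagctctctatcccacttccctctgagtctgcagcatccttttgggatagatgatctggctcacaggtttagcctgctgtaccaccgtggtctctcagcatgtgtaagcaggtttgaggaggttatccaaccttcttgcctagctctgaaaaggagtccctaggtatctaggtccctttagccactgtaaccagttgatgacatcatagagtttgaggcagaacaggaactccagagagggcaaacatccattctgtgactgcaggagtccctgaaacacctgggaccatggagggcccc
The Hk3 run holds 1 match to each motif, the Hk2 run 2 matches to ACGTG, the inner Hk1 run 2 to ACGTG and 1 to GAGGAAG, and the outer Hk1 run none. Start regions were matched for 35 of the 36 genes (all but Slc2a3), 49 in all. ACGTG was in 46.9% of these 49 and in 19.6% of all 32851 regions of that length, GAGGAAG in 18.4% and 13.6%, and the E-box CACGTG, which contains ACGTG, in 6.12% and 7.15%. These are matches of letters and not measured sites. Some genes gave several of the 49 regions, and by gene ACGTG was found for 20 of 35. The 32851 regions were not matched to the 49 in base content or in expression of their genes, so the shares were not tested as enrichment.

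Hk3, the hexokinase of myeloid cells (ENSMUSG00000025877, GRCm38 chromosome 13, 55005985 to 55021385, minus strand), was at 1140, 1056.5 and 1195.5 CPM in replicates 1, 2 and 3. Hk1, the form found in most tissues, was at 220, 257 and 300 CPM, and Hk2, the form of muscle that many dividing cells also use, was at 87.0, 119 and 152 CPM. Levels of different genes are compared here per kb of merged exons, since longer genes collect more reads. On that scale Hk3 made up 88.5%, 85.1% and 84.3% of the summed hexokinase level and the ranges of the 3 genes did not overlap. The log2 ratio of CPM per kb (pseudocount 0.1) was 3.34 ± 0.20 for Hk3 over Hk1 and 3.97 ± 0.38 for Hk3 over Hk2 (SD, n = 3). Hk1 exceeded Hk2 by 0.63 ± 0.18 on that scale. For these and the other ratios given, 17 in all, an exact sign-flip permutation test over libraries, two-sided, cannot go below p = 0.25, which 14 of them reached (adjusted p = 0.304), so none can pass a threshold and the ratios stand against their spread only. Per kb of the longest transcript the first ratio was 2.54, so the size of the Hk3 excess depends on the length used.

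Glucose enters these cells through transporters of the GLUT family. Slc2a3, which encodes the high-affinity GLUT3, was at 544, 523 and 653 CPM and Slc2a1, which encodes GLUT1, at 19.8, 27.0 and 34.4 CPM in replicates 1, 2 and 3. Per kb, Slc2a3 held 93.0%, 90.3% and 90.2% of the sum of Slc2a3 and Slc2a1 (log2 ratio 3.37 ± 0.30, SD, n = 3). That sum leaves out Slc2a6, at 62.1, 68.5 and 67.1 CPM, and Slc2a9, at 16.5 ± 2.22 CPM. Per kb the mean of Slc2a6 (20.5) was above that of Slc2a1 (7.72). Slc16a3, the gene of the lactate exporter MCT4, was at 337, 353 and 292 CPM.

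Gpi1, which converts glucose 6-phosphate to fructose 6-phosphate, was among the highest genes at 2760, 2518 and 2298 CPM. The next step was the lowest of all when levels were taken per kb. Pfkl, the liver-type phosphofructokinase (ENSMUSG00000020277, GRCm38 chromosome 10, 77986947 to 78010083, minus strand), was at 47.6, 39.1 and 34.7 CPM. Pfkp, the platelet type, was at 47.8, 37.3 and 43.7 CPM, and Pfkm, the muscle type, at 2.14, 0.623 and 2.45 CPM from 11, 25 and 92 reads. Pfkm was called below 10 CPM (log2 -2.08, SE 0.33, limma adjusted p = 4.16e-06). Per kb, Pfkl held 62.9%, 66.4% and 56.6% of the phosphofructokinase sum and Pfkp 31.5%, 31.5% and 35.5%. The log2 ratio of Pfkl over Pfkp was 0.89 ± 0.21 (SD, n = 3), but in CPM not divided by length it was -0.090, so their order depends on dividing by length (13401 merged exon bases for Pfkp and 6675 for Pfkl).

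When the isoenzymes of each of the 26 steps were summed per kb, phosphofructokinase was lowest at 11.3, 8.83 and 9.20 CPM per kb in replicates 1, 2 and 3. The hexokinase sum was 30.9 to 41.9 times as high within a library, the isomerase 37.8 to 44.2 times and the aldolase sum 52.2 to 62.4 times. Glucose-6-phosphate dehydrogenase, which opens the other branch, was 26.0 to 38.8 times as high as phosphofructokinase. Per kb of the longest transcript the same 4 ranges were 22.2 to 30.9, 45.5 to 52.5, 58.5 to 69.0 and 18.0 to 27.3. The range of the phosphofructokinase sum over libraries overlapped that of no other step, the nearest being the branching enzyme at 16.1 to 21.3 CPM per kb. This lowest rank holds per kb only. In mean CPM not divided by length, Pfkl (40.5) and Pfkp (42.9) together exceeded both Pgam1 (59.2) and Rpe (66.6). These step comparisons were chosen after the values were seen.

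**Figure D2:**
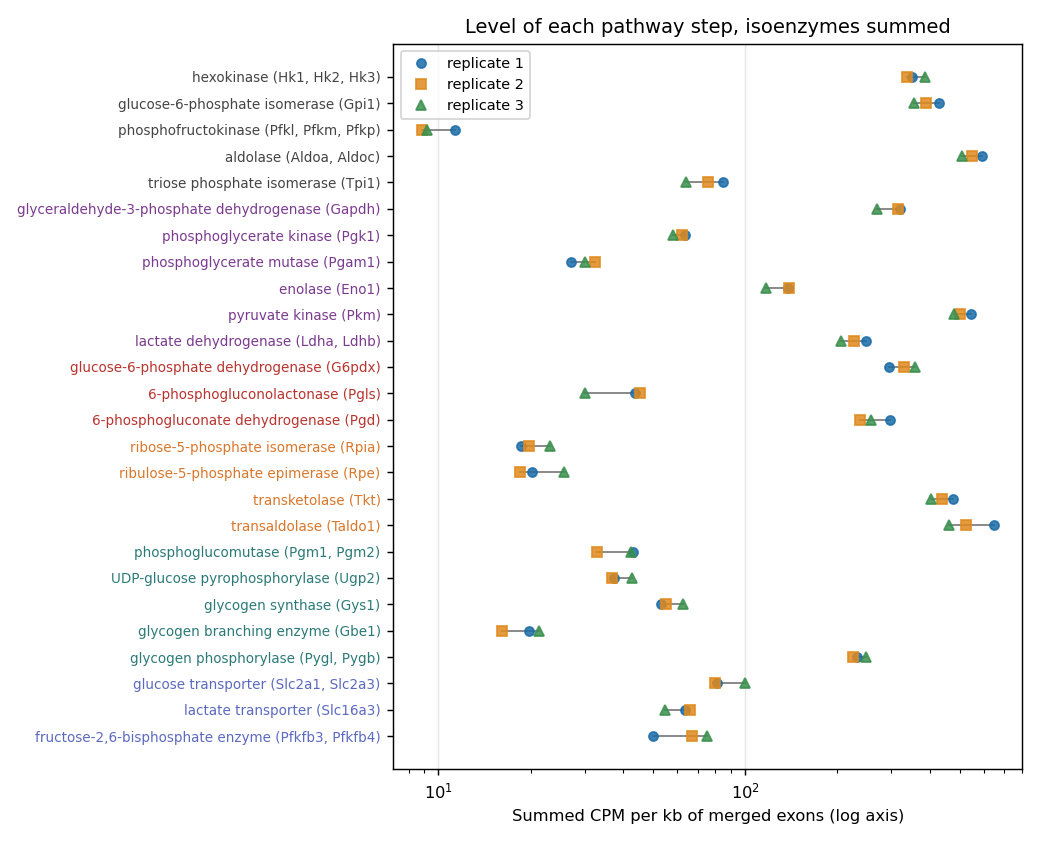
Summed CPM per kb of merged exons (log axis) for the 26 pathway steps, with 1 point per library, a line from the lowest to the highest library and the genes summed in brackets. The phosphofructokinase points lie between 8.83 and 11.3, apart from those of the steps around them, and aldolase, transaldolase, pyruvate kinase and transketolase lie highest.

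The enzymes that set the phosphofructokinase activator fructose 2,6-bisphosphate were led by Pfkfb4, at 194, 254 and 294 CPM. Pfkfb3, the form with the strongest kinase bias, was at 76.9, 112 and 110 CPM. Per kb Pfkfb4 held 79.7%, 77.9% and 80.6% of their sum (log2 ratio 1.94 ± 0.12, SD, n = 3). Both genes were lowest in replicate 1.

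Aldolase, which cuts the sugar into trioses, was almost all Aldoa, at 1721, 1604 and 1479 CPM. Aldoc, the brain form, was at 0.194, 1.10 and 2.79 CPM from 1, 44 and 105 reads and was called below 10 CPM (log2 -2.38, SE 0.36, limma adjusted p = 2.23e-06). The log2 ratio of Aldoa over Aldoc was 10.41 ± 1.40 per kb (SD, n = 3), 9.68 without replicate 1 and 11.08 without replicate 3. In replicate 1 the ratio per kb rested on 1 read of Aldoc. It was 3706-fold with the pseudocount of 0.1, which exceeds the 0.0595 CPM per kb of Aldoc there, and 9932.5-fold without it. The ratio without pseudocount had a 95% exact binomial interval of 1782-fold to 392360-fold that covers counting error only. Tpi1, triose phosphate isomerase, was at 234, 209 and 177 CPM.

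The lower part of glycolysis, from the triose to lactate, was uneven between its steps. Pkm, pyruvate kinase, was at 2735, 2516 and 2396.5 CPM and Gapdh, the dehydrogenase that makes NADH, at 1320, 1306 and 1108 CPM. Eno1, enolase, was at 742, 746 and 631 CPM. Pgk1, the first kinase that yields ATP, was at 143, 140 and 130 CPM, and Pgam1, phosphoglycerate mutase, at 53.6, 64.4 and 59.6 CPM. Per kb Gapdh was 8.91 to 11.8 times as high as Pgam1 in the same library.

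Near-identical gene copies touch these steps, lactate dehydrogenase and also Gpi1 of upper glycolysis. Of the 36 genes, 8 share at least 500 bases of transcript at 95% identity or more with genes elsewhere in the genome: Gapdh with 91, Eno1 and Ldha with 4 each, Pgk1 and Pgam1 with 2 each, and Gpi1, Pkm and Ldhb with 1 each. Reads from such stretches may be split or dropped in counting, so the levels of these 8 genes are uncertain. Pgk1 shares up to 1257 bases and Pgam1 up to 765 bases with copies that are not listed. The 4 listed copies were low, with means of 10.1 CPM for Eno1b (a copy of Eno1), 5.16 for Gm1840 (Gpi1), 3.91 for Gm6560 (Pkm) and 2.51 for 3000002C10Rik (Gapdh). The part of the copies in the Pgk1 and Pgam1 levels was not tested. The exons of 13 of the 36 genes overlap another gene by at least 50 bases, among them those of Pfkp with Pitrm1 and of G6pdx with Ikbkg on the opposite strand, and the strand setting of the counting is not given in the sources used here.

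Lactate dehydrogenase was mainly Ldha, the form that favours lactate, at 779, 701 and 620 CPM. Ldhb, the heart form, was at 19.8, 22.8 and 28.7 CPM. Per kb Ldha held 94.9%, 93.6% and 91.1% of the sum (log2 ratio 3.81 ± 0.43, SD, n = 3). The 2 genes were in opposite order over the libraries: Ldha was highest and Ldhb lowest in replicate 1.

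Among the 36 genes, the lactonase, isomerase and epimerase genes of the pentose phosphate pathway were lower than its other genes in every library. In the oxidative part, G6pdx, glucose-6-phosphate dehydrogenase on the X chromosome, was at 907, 1015.5 and 1100 CPM and Pgd, 6-phosphogluconate dehydrogenase, at 1914, 1523 and 1661 CPM. Pgls, the lactonase between these 2 NADPH-making enzymes, was at 165, 171 and 113 CPM. Per kb, G6pdx (327 ± 31.5 CPM per kb) and Pgd (264 ± 30.7) overlapped between libraries, and Pgls (39.7 ± 8.46) was lower in each library. The log2 ratio of Pgd over G6pdx was -0.31 ± 0.28 (SD, n = 3) and 0.29 per kb of the longest transcript, so which was higher is not settled.

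In the non-oxidative part, Tkt, transketolase (ENSMUSG00000021957, GRCm38 chromosome 14, 30548359 to 30574720, plus strand), was the highest of all 36 genes in CPM (3497, 3213 and 2976) but not per kb. Taldo1, transaldolase, was at 1405, 1143 and 1007 CPM. Per kb they were close to each other (439 ± 35.5 and 546 ± 93.2 CPM per kb), at percentiles 99.3 and 99.5 of all listed genes. The log2 ratio of Tkt over Taldo1 was -0.30 ± 0.13 (SD, n = 3) and 0.21 per kb of the longest transcript, so the order of these 2 genes depends on the length used. Rpia and Rpe, the isomerase and epimerase that feed them, were at 99.4, 106 and 124 CPM and at 62.7, 57.3 and 79.9 CPM. Transaldolase was 20.1 to 34.9 times as high per kb as Rpia in the same library. Rpia over Rpe had a log2 ratio of -0.057 ± 0.14 (exact sign-flip permutation p = 0.5), and 0.31 per kb of the longest transcript.

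The oxidative entry and the glycolytic isomerase compete for glucose 6-phosphate. G6pdx over Gpi1 had log2 ratios of -0.54, -0.24 and 0.0036 per kb in replicates 1, 2 and 3, with a mean of -0.26 ± 0.27 (SD, exact sign-flip permutation p = 0.5). The mean was -1.06 per kb of the longest transcript and -1.33 in CPM not divided by length, so the closeness of the 2 genes holds for merged exon length only. By pathway part, the median level over genes was 263 ± 29.4 CPM per kb for the 3 oxidative genes, 230 ± 16.4 for the 4 non-oxidative genes, 131 ± 12.1 for lower glycolysis (7 genes) and 25.2 ± 5.06 for upper glycolysis (10 genes, which include low isoenzymes). The median was 23.8 ± 4.22 for the 7 glycogen genes and 48.9 ± 8.01 for the 5 genes of transport and control. All listed genes had a median of 4.31 ± 0.28 CPM per kb. The order of the parts depends on the length used: per kb of the longest transcript the median was 450.1 for the non-oxidative, 380 for the oxidative and 348.5 for the lower glycolysis genes.

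Among the glycogen genes the enzyme that breaks glycogen down stood highest. Pygl, the liver-type glycogen phosphorylase (ENSMUSG00000021069, GRCm38 chromosome 12, 70190811 to 70231488, minus strand), was at 1563, 1527.5 and 1676 CPM. It was the steadiest of the 36 genes, with a coefficient of variation of 4.87% over the libraries. Pygb, the brain type, was at 22.5, 17.2 and 21.6 CPM, and Pygl held 98.0%, 98.4% and 98.2% of their sum per kb (log2 ratio 5.74 ± 0.17, SD, n = 3).

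On the side of synthesis, Gys1, glycogen synthase, was at 255, 264 and 299 CPM and Gbe1, the branching enzyme, at 106, 86.3 and 114 CPM. Ugp2, which makes UDP-glucose, was at 114, 113 and 132 CPM. Gys1 over Pygl had a log2 ratio of -2.02 ± 0.066 per kb (SD, n = 3), the smallest spread of the 17 ratios, and -2.77 per kb of the longest transcript. Pgm1 on chromosome 4, a phosphoglucomutase, was at 78.1, 55.5 and 75.3 CPM and Pgm2 on chromosome 5 at 42.7, 35.9 and 42.9 CPM, a log2 ratio of Pgm2 over Pgm1 of -0.59 ± 0.13. Both were lowest in replicate 2.

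**Figure D3:**
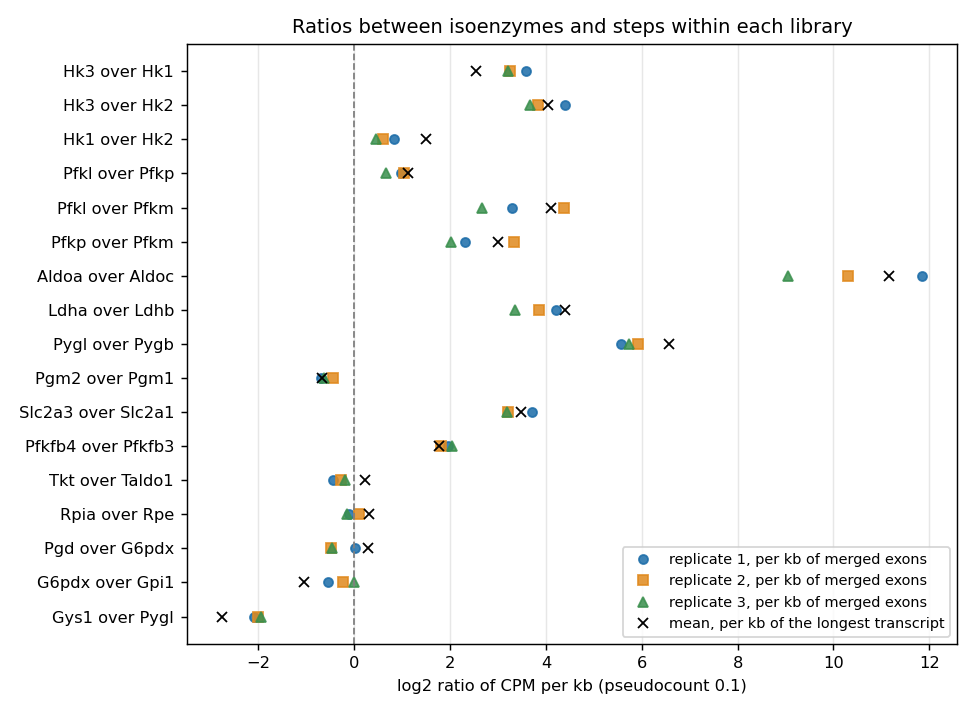
Log2 ratios of CPM per kb between isoenzymes and steps (pseudocount 0.1), with 1 point per library and a cross for the mean per kb of the longest transcript. Hk3, Aldoa, Ldha, Pygl, Slc2a3 and Pfkfb4 lie right of 0 against their partners in all 3 libraries and by either length, while Tkt over Taldo1, Rpia over Rpe and Pgd over G6pdx change sign with the length used.

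The spread of the 36 genes between libraries was like that of other genes of their level. The median coefficient of variation was 11.9%, and 18 of the 36 genes were below the median of the 100 listed genes nearest in mean CPM. Of the 34 genes above 10 CPM, 30 had a coefficient of variation under 20%, the others being Hk2 (27.3%), Slc2a1 (26.9%), Pgls (21.3%) and Pfkfb4 (20.3%). Aldoc (96.9%) and Pfkm (56.2%), with few reads, varied most.

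Genes of the pathways differed between libraries in 2 directions. Gpi1, Pfkl, Aldoa, Tpi1, Gapdh, Pgk1, Pkm, Ldha, Tkt and Taldo1 were highest in replicate 1 and lowest in replicate 3, which is 10 of the 34 genes above 10 CPM (29.4%), with 16.7% among all 7279 listed genes of at least 10 CPM. Hk1, Hk2, Ldhb, G6pdx, Rpia, Gys1, Slc2a1 and Pfkfb4 were highest in replicate 3 and lowest in replicate 1, 8 of 34 (23.5%), with 36.6% among all genes. With TMM scaling the 2 counts were 11 and 7 (23.4% and 26.0% of all genes), and with DESeq2 size factors 12 and 7 (24.2% and 25.3%). Under both scalings G6pdx left the second list.

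The difference between replicates 1 and 3 moved with exon length. Over the 7279 genes the Spearman correlation of log2 of replicate 1 over replicate 3 with merged exon length was -0.45, a description of 2 libraries in which genes are not independent replicates. Of the 34 genes 17 were higher in replicate 1 than in replicate 3, and of all genes 36.3%. TMM scaling adds 0.13 and DESeq2 size factors 0.15 to this log2 difference of every gene, which makes it 21 of 34 under either. Of all 7279 genes 2640 were higher in replicate 1 unscaled, 3425 with TMM and 3501 with DESeq2 size factors. Set against the 100 listed genes nearest in length, the 3 oxidative pentose phosphate genes had a median difference of 0.52 on the log2 scale (2 of 3 above their neighbours), the 7 lower glycolysis genes 0.33 (5 of 7) and the 8 upper glycolysis genes 0.24 (5 of 8). The median was 0.13 for the 4 non-oxidative genes (2 of 4), 0.025 for the 7 glycogen genes (4 of 7) and -0.14 for the 5 genes of transport and control (2 of 5). Over all 34 genes it was 0.096 (20 of 34). A median has as many genes above it as below, so counts from such small sets do not set the parts apart. In the oxidative set G6pdx was at -0.24 against its neighbours. Hk2 (-0.81, neighbours -0.32) and Slc2a1 (-0.80, neighbours -0.11) were lowest in replicate 1 relative to replicate 3. Replicate 1 also had more basophil and mast cell reads (0.0978% against 0.0137% and 0.0138%) and fewer eosinophil reads (0.0592% against 0.0990% and 0.136%), and late neutrophil markers took 18.8% of reads in replicate 3 against 22.4% and 22.5%. The part of exon length and of these cell types in the differences was not tested.

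**Figure D4:**
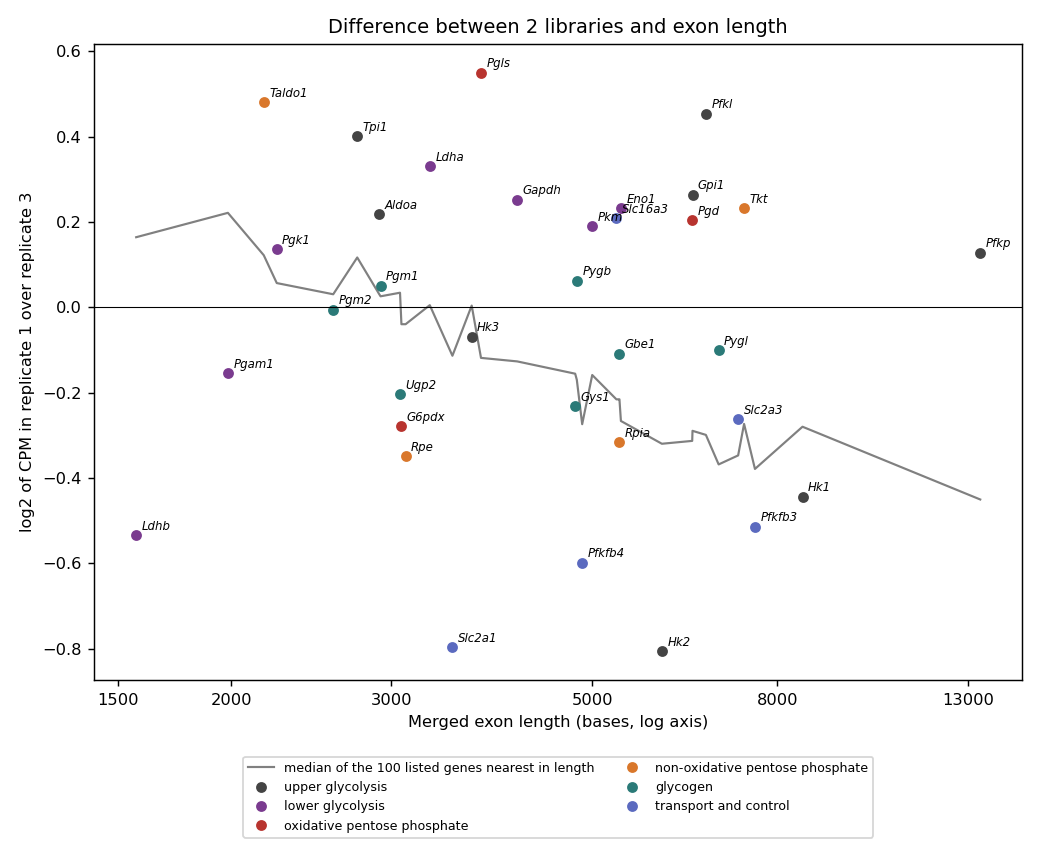
Log2 of CPM in replicate 1 over replicate 3 against merged exon length (log axis) for the 34 genes above 10 CPM, coloured by pathway part, with a grey line through the medians of the 100 listed genes nearest each gene in length. The line falls with length; Gpi1, Pfkl, Pgls and most lower glycolysis genes lie above it, and Hk2, Slc2a1, Pfkfb4 and Ldhb lie below it.

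Other genes of the same pathways were looked up in 9 lists of 112 genes, of which 82 were listed. Of these 50 were above 10 CPM, 19 below and 13 not called, shares near the 58.8% above and 28.3% below among all tested genes, against which the counts of each list also stand. Among further glycolytic enzymes (2 of 5 listed above, 2 below) the highest was Adpgk, an ADP-dependent glucokinase, at 1599, 1787 and 1943 CPM. Per kb Adpgk was at 185 CPM per kb, between Hk3 (307 ± 19.0) and Hk1 (30.4 ± 4.66). Bpgm, which makes the red cell effector of haemoglobin, followed at 28.1 ± 9.10 CPM, and Eno3 (3.82 ± 1.91) and Ldhc (4.88 ± 1.57), isoenzymes of muscle and testis, were below.

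Phosphatases that oppose phosphofructokinase were near the tested level. Tigar (12.1 ± 3.25 CPM), a phosphatase of fructose 2,6-bisphosphate, and Fbp1 (9.78 ± 1.12), fructose bisphosphatase, were not called. Pfkfb2 (1.54 ± 0.838), of the same family as Pfkfb3 and Pfkfb4, was below. In the pentose phosphate list (1 of 5 above, 1 below) H6pd, the dehydrogenase of the endoplasmic reticulum, was at 117 ± 13.4 CPM and Prps1 at 13.3 ± 5.05, with Shpk (1.97 ± 0.734) and Rbks (7.24 ± 2.32) lowest. Of the glycogen list 10 of 16 were above and 5 below, led by the primer protein gene Gyg (179 ± 11.3 CPM) and the kinase gene Gsk3a (167 ± 14.2). Lowest there were Ppp1r3e (1.06 ± 0.356) and Stbd1, which had 4 reads in replicate 1 and none in the others and was not tested.

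Glucose release and gluconeogenesis had 4 of 6 genes above and 1 below, from Slc37a1 (32.8 ± 12.2 CPM) and Pck2 (27.3 ± 1.62) to Slc37a4 (14.4 ± 2.14) and Pcx (2.72 ± 0.909), the pyruvate carboxylase gene. Of other transporters 4 of 7 were above and 2 below. The highest were Emb (183 ± 17.9) and Bsg (155 ± 23.0), whose proteins chaperone lactate carriers, and the lowest Slc2a8 (1.17 ± 1.04) and Slc16a7 (5.35 ± 1.11). For entry of pyruvate into mitochondria 7 of 13 genes were above and 4 below, with the pyruvate carrier gene Mpc2 at 91.1 ± 17.6 CPM and the dehydrogenase subunit Pdha1 at 68.9 ± 6.04, and the phosphatase genes Pdp2 (0.804 ± 0.674) and Pdp1 (3.10 ± 1.59) lowest.

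Genes of other sugars and nucleotide sugars had 11 of 15 above and 2 below, from Ugdh (104 ± 5.87 CPM) and Gfpt1 (53.8 ± 5.66) to Gnpnat1 (2.09 ± 1.19) and Pgm3 (1.84 ± 1.21). Of 12 regulators tied to hypoxia-inducible factors, MYC and glucose sensing, 11 were above and 1 below. Txnip, a glucose-responsive inhibitor of thioredoxin, was highest at 348 ± 10.5 CPM, followed by Mlx (68.3 ± 1.82). Hif1a, which encodes HIF-1alpha, was above at 42.7 ± 13.1 CPM. Myc was at 15.4 ± 4.63 CPM, and Epas1, which encodes HIF-2alpha, was below at 0.325 ± 0.403 CPM (SD, n = 3).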

How the data were processed

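The deposited values were CPM, for each gene the reads that the authors assigned to it, scaled to the same total in each library, 1 file per library. FastQC, STAR, featureCounts and edgeR and the builds mm10 and GRCh38 are named in the submitters' processing notes, and versions, the role of each build, annotation, strand setting, treatment of multiply mapped reads and gene filter are not given in the sources used here. Each gene was kept once (44 repeated entries removed). All values were whole multiples of the CPM of 1 read within 0.01 reads (100% of values), which gave the read totals. A count of 0 allows up to 0.583, 0.0747 and 0.0798 CPM in replicates 1, 2 and 3, for counting error only. Library pairs differed far beyond sampling noise (chi-square of reads per degree of freedom 35.5 to 83.7), so none was counted as a repeat deposit of another library; this does not show separate animals.

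In limma 3.58.1 (R 4.3.3) an intercept on log2(CPM + 1) was tested two-sided against 10 CPM for the 11123 genes with at least 10 reads in all, with trended moderation and Benjamini-Hochberg adjustment over all of them. This scale understates differences of low genes. The tests were also run on simulated reads of known level, with the same dispersion for all genes. That simulation lacks the length trend between these libraries and the uneven spread of their genes. It therefore does not vouch for the p-values given here. Lengths and positions came from GENCODE vM21 (GRCm38, the assembly of mm10), copies from blastn 2.17.0 on its transcripts. Alternatives were edgeR 4.0.16 and DESeq2 1.42.0 on recovered reads, other scalings, levels, pseudocounts and lengths, and leaving out each library. Since edgeR's own function takes no design of 1 column, its quasi-likelihood F test against 10 CPM was computed from its fitted dispersions. Every one of the 36 genes was named, and of each other pathway list the 2 highest and 2 lowest genes. Slc2a6, Slc2a9 and Hif1a were named besides these. The genes and lists were chosen with earlier results of these data known.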

Additional observations from a re-analysis of the deposited data

How the results depend on the processing

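The counts of 34 genes above and 2 below 10 CPM held with a pseudocount of 0.1, without the filter on reads, with TMM or DESeq2 factors, in edgeR and DESeq2 on recovered reads, at 5 CPM and without each library. At 20 CPM 32 were above, Ldhb and Pygb being uncalled (limma adjusted p = 0.237 and 0.918), and of all genes 4929 were above and 4689 below. Over all listed genes, edgeR called 6660 above and 2787 below and DESeq2 6558 and 2939, where limma had 6539 and 3153, and at 5 CPM 1870 were below. Leaving out a library reversed none of the 3 mean ratios whose libraries differed in sign. No paired analysis was possible because there is 1 group.

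Length mattered most for the log2 ratios. Per kb of the longest transcript they were 2.54 (Hk3 over Hk1), 1.51 (Hk1 over Hk2), 1.11 (Pfkl over Pfkp), 4.41 (Ldha over Ldhb), 6.57 (Pygl over Pygb), 1.77 (Pfkfb4 over Pfkfb3), -1.06 (G6pdx over Gpi1) and -2.77 (Gys1 over Pygl), with reversals to 0.21 (Tkt over Taldo1), 0.31 (Rpia over Rpe) and 0.29 (Pgd over G6pdx). In CPM not divided by length they were 2.13 (Hk3 over Hk1), 3.28 (Hk3 over Hk2), 1.14 (Hk1 over Hk2), 4.65 (Pfkl over Pfkm), 4.74 (Pfkp over Pfkm), 4.89 (Ldha over Ldhb), 6.28 (Pygl over Pygb), -0.77 (Pgm2 over Pgm1), 4.43 (Slc2a3 over Slc2a1), 1.31 (Pfkfb4 over Pfkfb3), -1.33 (G6pdx over Gpi1) and -2.54 (Gys1 over Pygl), and reversed to -0.090 (Pfkl over Pfkp), 1.46 (Tkt over Taldo1), 0.73 (Rpia over Rpe) and 0.75 (Pgd over G6pdx). With a pseudocount of 1 CPM per kb they were 2.23 (Pfkl over Pfkm), 1.48 (Pfkp over Pfkm), 8.64 (Aldoa over Aldoc) and 5.47 (Pygl over Pygb). Median levels per kb of the longest transcript were 41.1 (upper glycolysis), 348.5 (lower glycolysis), 380 (oxidative), 450.1 (non-oxidative), 28.2 (glycogen) and 65.3 CPM per kb (transport and control). The scalings of the library patterns were chosen after seeing the data. Replicate 1, the shallowest, sets the precision of low genes, with 1 read of Aldoc and 11 of Pfkm.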
